A study of Homo sapiens with 6 samples.

Results

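Of the 60617 genes in the deposited count table, 51 protein-coding genes made up the nuclear subunits of respiratory chain complexes II to V. They were chosen by symbol alone: SDHA to SDHD for complex II, CYC1 and the symbols that begin with UQCR for complex III, the symbols that begin with COX4 to COX8 followed by a letter for complex IV, and the symbols that begin with ATP5 for complex V. This gave 4 genes for complex II, 10 for complex III, 17 for complex IV and 20 for complex V. The symbol rule also took genes that are not fixed parts of a complex, namely the ATP synthase inhibitor gene ATP5IF1, the supercomplex factor gene COX7A2L, tissue-restricted isoforms of complex IV, and the paralog or read-through genes ATP5MGL and ATP5MF-PTCD1. RNA came from the human lung cancer line A549, either wild type or carrying a knockout of YTHDF1, a cytoplasmic protein that binds N6-methyladenosine in mRNA. Each genotype had 3 libraries of total RNA, which the labels name biological replicates, and no treatment is named for either genotype. Whether the knockout libraries came from 1 clone, and whether replicates were separate cultures, is not stated, so the p-values measure the spread between these libraries.

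Complex II, succinate dehydrogenase, takes electrons from succinate in the citrate cycle and hands them to ubiquinone. Complex III passes electrons from ubiquinol to cytochrome c and complex IV passes them on to oxygen, and both help build the proton gradient across the inner mitochondrial membrane. Complex V, the ATP synthase, lets protons flow back through a rotating ring of c subunits and makes ATP in its F1 head. Complex II is built from nuclear genes only, while complexes III, IV and V also contain subunits encoded in mitochondrial DNA.

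Levels are given as CPM, a gene's share of its library's counts on a common scale, with TMM factors to correct for differences in library composition. Changes are log2 fold changes of knockout minus wild type with their standard error (SE), and a gene was called when its p in the quasi-likelihood test of edgeR, adjusted by the Benjamini-Hochberg method over 18505 tested genes, was under 0.05. Libraries held 27238817 to 40675628 counts. YTHDF1 RNA was 98.0, 104 and 96.4 CPM in wild-type and 48.6, 48.6 and 47.1 CPM in knockout libraries, so its RNA was present in each knockout library and lower there than in any wild-type library. Mitochondrially encoded mRNAs took 5.76% to 5.92% of counts in the wild-type libraries and 3.72% to 3.98% in the knockout libraries, and MALAT1 with NEAT1 took 0.0838% to 0.0885% and 0.0916% to 0.0991%. Both shares moved with genotype, and their part in the results below was not tested. All 8 markers of A549 or epithelium were tested, with summed levels of 11283.0 to 12016 CPM in the wild-type libraries and 11117.5 to 11672 CPM in the knockout libraries, but the sum is led by ALDH1A1 and 6 of the 8 were called, in both directions. AKR1B10 fell by 1.06 and ALDH1A1 by 0.20 on the log2 scale, KRT19, AKR1C1, KRT7 and KRT8 rose by 0.52, 0.40, 0.40 and 0.19, and KRT18 and EPCAM were not called. Of 12 markers of immune, endothelial, fibroblast and muscle cells, only COL1A1 and COL3A1 had enough counts to be tested, CD3E and MYH7 had 0 counts in all 6 libraries, and the 12 together summed to 29.1 to 35.4 CPM in the wild-type libraries and 41.3 to 45.4 CPM in the knockout libraries, most of it COL1A1. The fibroblast markers moved in opposite directions, since COL1A1 rose by 0.49 and COL3A1 fell by 1.27. A relative count does not separate fewer cells from less RNA of a gene per cell, and the amount of RNA per cell was not measured.

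Most nuclear subunit genes of complexes III, IV and V were lower in the knockout libraries, by amounts that were mostly under 1.5-fold. Of the 51 genes, 45 had enough counts to be tested. Among these 30 fell, 3 rose and 12 were not called, and the median log2 fold change was -0.25, with a range from -1.10 to 0.65. Over all genes tested, 26.3% were called lower and 27.2% higher, and the median was 0.00109. Because well-counted genes are called more often, the 37 members with a mean of at least 10 CPM were also set beside the 9771 genes at that level. Of the 37 members, 28 fell and 1 rose, where 36.8% of the 9771 genes were called lower and 34.6% higher, with a median of -0.02. By complex, 1 of 4 tested genes of complex II fell and 2 rose, 7 of 10 of complex III fell and 1 rose, 8 of 13 of complex IV fell, and 14 of 18 of complex V fell. The medians were 0.12, -0.26, -0.23 and -0.37 in that order. Levels of the 2 genotypes did not overlap in 34 of the 45 members and in 58.9% of all genes tested.

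Of the 45 tested members, 6 fell by at least 1.5-fold, a size of fall called in 10.6% of all genes tested. The share of members is near that share over all genes, so this count is no result about the members. The 6 were UQCRB of complex III, COX7A2L of complex IV, and ATP5PB, ATP5MC2, ATP5MC1 and ATP5F1A of complex V. With a fold of at least 1.2 built into the test, 16 members were lower and 1, UQCR10, was higher, where 15.2% of all genes tested were lower and 17.4% higher. Under that test the lower members numbered 1 for complex II, 2 for complex III, 5 for complex IV and 8 for complex V.

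**Figure D1:**
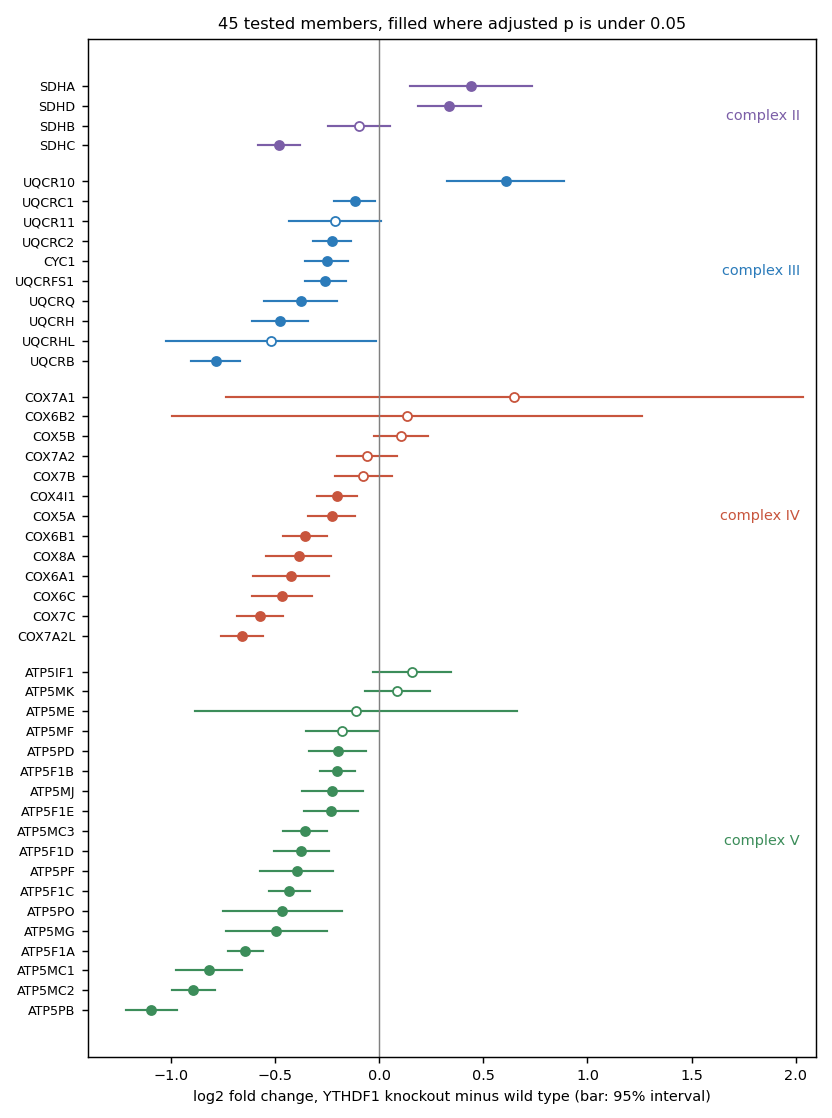
Log2 fold change, knockout minus wild type, of the 45 tested members on the horizontal axis, in rows grouped by complex; bars are 95% intervals and filled points have an adjusted p under 0.05. The filled points of complexes IV and V all lie to the left of 0, and those to the right are SDHA, SDHD and UQCR10.

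Promoter sequence is shown for the 3 members that rose, for ATP5PB and ATP5MC2, which had the smallest adjusted p of complex V, and for ATP5PF, whose gene overlaps that of a regulator of respiratory chain genes. RefSeq promoter windows on GRCh38.p14, from 250 bases before to 50 bases after the transcript start, were found for 38 of the 51 members. Each was searched on both strands for the core GCGCNTGCG of nuclear respiratory factor 1 (NRF1), the core CCGGAAG of the ETS family, to which the respiratory chain regulator GABPA belongs, and the core AAGATGGCG of YY1. Capitals mark the matches, and a palindromic match is counted on each strand. The windows are chr5:218070-218369 (+) for SDHA, chr11:112086623-112086922 (+) for SDHD, chr22:29767119-29767418 (+) for UQCR10, chr1:111449214-111449513 (+) for ATP5PB, chr12:53676034-53676333 (-) for ATP5MC2 and chr21:25735005-25735304 (-) for ATP5PF.
SDHA: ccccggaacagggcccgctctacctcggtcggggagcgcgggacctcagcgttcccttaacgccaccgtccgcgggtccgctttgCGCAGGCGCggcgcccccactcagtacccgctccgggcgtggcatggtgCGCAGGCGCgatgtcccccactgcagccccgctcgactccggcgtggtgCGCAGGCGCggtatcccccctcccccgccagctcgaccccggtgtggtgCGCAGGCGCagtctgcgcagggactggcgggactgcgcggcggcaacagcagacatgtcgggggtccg
SDHD: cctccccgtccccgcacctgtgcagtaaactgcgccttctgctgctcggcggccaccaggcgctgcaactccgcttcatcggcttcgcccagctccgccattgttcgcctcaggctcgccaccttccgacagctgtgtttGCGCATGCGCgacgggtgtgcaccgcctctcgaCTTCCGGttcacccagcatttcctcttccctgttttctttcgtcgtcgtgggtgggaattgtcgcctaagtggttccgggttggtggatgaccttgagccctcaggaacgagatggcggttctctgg
UQCR10: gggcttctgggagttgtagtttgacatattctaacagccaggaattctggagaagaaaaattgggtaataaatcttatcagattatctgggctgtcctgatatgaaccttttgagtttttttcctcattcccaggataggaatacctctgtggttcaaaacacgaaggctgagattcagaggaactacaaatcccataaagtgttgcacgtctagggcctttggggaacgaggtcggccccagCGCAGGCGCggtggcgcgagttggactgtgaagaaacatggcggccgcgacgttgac
ATP5PB: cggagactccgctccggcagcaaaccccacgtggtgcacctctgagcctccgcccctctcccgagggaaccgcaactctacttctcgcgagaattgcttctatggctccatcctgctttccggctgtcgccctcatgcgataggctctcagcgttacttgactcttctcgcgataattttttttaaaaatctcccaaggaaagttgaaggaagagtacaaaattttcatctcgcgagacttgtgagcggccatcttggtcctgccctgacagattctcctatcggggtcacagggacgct
ATP5MC2: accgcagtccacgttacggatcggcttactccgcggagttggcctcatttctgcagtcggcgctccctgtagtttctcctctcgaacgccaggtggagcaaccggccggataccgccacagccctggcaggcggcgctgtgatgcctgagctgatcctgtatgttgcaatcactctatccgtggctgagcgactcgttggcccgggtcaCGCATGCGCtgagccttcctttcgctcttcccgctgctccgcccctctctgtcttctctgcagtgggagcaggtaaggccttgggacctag
ATP5PF: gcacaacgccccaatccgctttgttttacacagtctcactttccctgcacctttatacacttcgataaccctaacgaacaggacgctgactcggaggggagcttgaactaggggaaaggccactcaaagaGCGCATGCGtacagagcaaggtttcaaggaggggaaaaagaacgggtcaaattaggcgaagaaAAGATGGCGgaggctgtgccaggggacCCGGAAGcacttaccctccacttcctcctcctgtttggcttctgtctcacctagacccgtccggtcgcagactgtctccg

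The SDHA window holds the NRF1 core 4 times, the SDHD window holds it in a palindrome beside 1 ETS core, and the UQCR10 window holds it once. The ATP5PB window holds no exact match to the 3 cores, the ATP5MC2 window holds 1 NRF1 core, and the ATP5PF window holds 1 of each. Only exact matches to the stated letters were counted, so a variant site would be missed. Over the 38 members the NRF1 core was present in 14 (36.8%), the ETS core in 15 (39.5%) and the YY1 core in 3 (7.89%). Among 27305 promoter windows of the same length these shares were 8.05%, 10.7% and 1.85%. Those windows were not limited to protein-coding or tested genes, so they are not matched to the members, and the difference was not tested. Both directions of change were found among windows with the NRF1 core, since 3 of 3 members that rose, 8 of 23 that fell and 2 of 9 that were not called had it. For the ETS core the counts were 1 of 3, 9 of 23 and 5 of 9. A match describes the letters in the window and does not show binding.

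Complex II has no mitochondrially encoded subunit, and its called genes went in both directions, in counts that are no result about the complex. SDHC and SDHD encode the membrane anchors that hold the heme and the ubiquinone site. SDHC (chr1:161314257-161375340, +) was 111, 102 and 109 CPM in wild-type and 77.8, 76.7 and 76.4 CPM in knockout libraries. It fell by 0.48 on the log2 scale (SE 0.0492, adjusted p 3.77e-10), with every knockout library below every wild-type library. SDHD (chr11:112086773-112120013, +) was 24.7, 26.9 and 28.7 CPM in wild-type and 32.2, 34.1 and 35.1 CPM in knockout libraries. It rose by 0.34 (SE 0.0734, adjusted p 0.000215), with every knockout library above every wild-type library, so that the anchor genes moved in opposite directions.

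SDHA encodes the flavoprotein that oxidises succinate. SDHA (chr5:218241-256700, +) was 4.46, 6.27 and 5.64 CPM in wild-type and 7.34, 7.57 and 7.2 CPM in knockout libraries, and it rose by 0.44 (SE 0.144, adjusted p 0.00977). The groups did not overlap, wild-type replicate 1 was the lowest library, and without it the change was 0.31 with an adjusted p of 0.0857, which is no longer called. With a fold of at least 1.2 built into the test, neither SDHA (adjusted p 0.0996) nor SDHD (adjusted p 0.142) was called. SDHB, the iron-sulfur subunit that carries the electrons onward, was 33.7, 41.2 and 42.4 CPM in wild-type and 35.6, 37.0 and 36.7 CPM in knockout libraries. Its groups overlapped and it was not called, with a log2 fold change of -0.10 (95% interval -0.25 to 0.05), although without wild-type replicate 1 the value was -0.20 with an adjusted p of 0.0223. Of these 4 genes, 3 have near copies elsewhere in the genome. Of the 31-base words in the coding sequence, 44.3% for SDHA, 63.7% for SDHC and 81.2% for SDHD also occur in exons of other genes, against 0.1% for SDHB, so the division of reads between those genes and their copies is uncertain.

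In complex III the electron-carrying and core subunits fell by small amounts and the accessory subunits spread further. CYC1, the cytochrome c1 gene, was 121, 131 and 124 CPM in wild-type and 113, 100.05 and 103 CPM in knockout libraries. It fell by 0.25 (SE 0.0504, adjusted p 6.54e-05), and the groups did not overlap. UQCRFS1, the Rieske iron-sulfur protein gene (chr19:29205321-29213541, -), was 184, 187 and 183 CPM in wild-type and 168, 149 and 146 CPM in knockout libraries. It fell by 0.26 (SE 0.0484, adjusted p 2.54e-05), again without overlap, and 73.7% of its coding words also occur in UQCRFS1P1, so its count is uncertain. The core protein genes UQCRC2 and UQCRC1 fell by 0.23 and by 0.12. The call for UQCRC1 (adjusted p 0.0396) was lost without wild-type replicate 1 or 2 or knockout replicate 2 or 3 (adjusted p 0.0787 to 0.24), with library size in place of TMM factors (0.106) and with no filter on low counts (0.0765).

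Among accessory subunits, UQCRB, a ubiquinone-binding subunit, was 94.9, 88.9 and 88.3 CPM in wild-type and 53.1, 56.7 and 48.0 CPM in knockout libraries. It fell by 0.79 (SE 0.0581, adjusted p 1.79e-13), the largest fall of the complex, and 38.3% of its coding words occur elsewhere. UQCRH, the acidic hinge protein at the cytochrome c docking site (chr1:46303631-46316776, +), was 55.3, 57.3 and 52.4 CPM in wild-type and 43.7, 37.3 and 37.5 CPM in knockout libraries. It fell by 0.48 (SE 0.0655, adjusted p 1.64e-07). Neither gene's groups overlapped. UQCRHL, a paralog of UQCRH that shares 70.0% of its coding words with it, was 3.4, 4.23 and 2.22 CPM in wild-type and 2.94, 2.45 and 1.45 CPM in knockout libraries, with overlapping groups and a log2 fold change of -0.52 that was not called (adjusted p 0.0776). Reads that lie wholly within the shared stretches cannot be told apart by sequence, so the division of counts within that pair is uncertain. UQCRQ, which lies beside cytochrome b, fell by 0.38, and 20.8% of its exonic bases overlap GDF9 on the opposite strand. UQCR11 had a log2 fold change of -0.21 with an adjusted p of 0.101.

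UQCR10, a small subunit with a single membrane-spanning helix, went the other way. UQCR10 (chr22:29767369-29770413, +) was 5.25, 5.68 and 5.02 CPM in wild-type and 8.45, 8.7 and 7.08 CPM in knockout libraries. It rose by 0.61 (SE 0.138, adjusted p 0.000357), with every knockout library above every wild-type library. None of its coding words occur in another gene and none of its exonic bases overlap one, and its rise was the only one among members that stayed called with a fold of at least 1.2 built into the test.

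**Figure D2:**
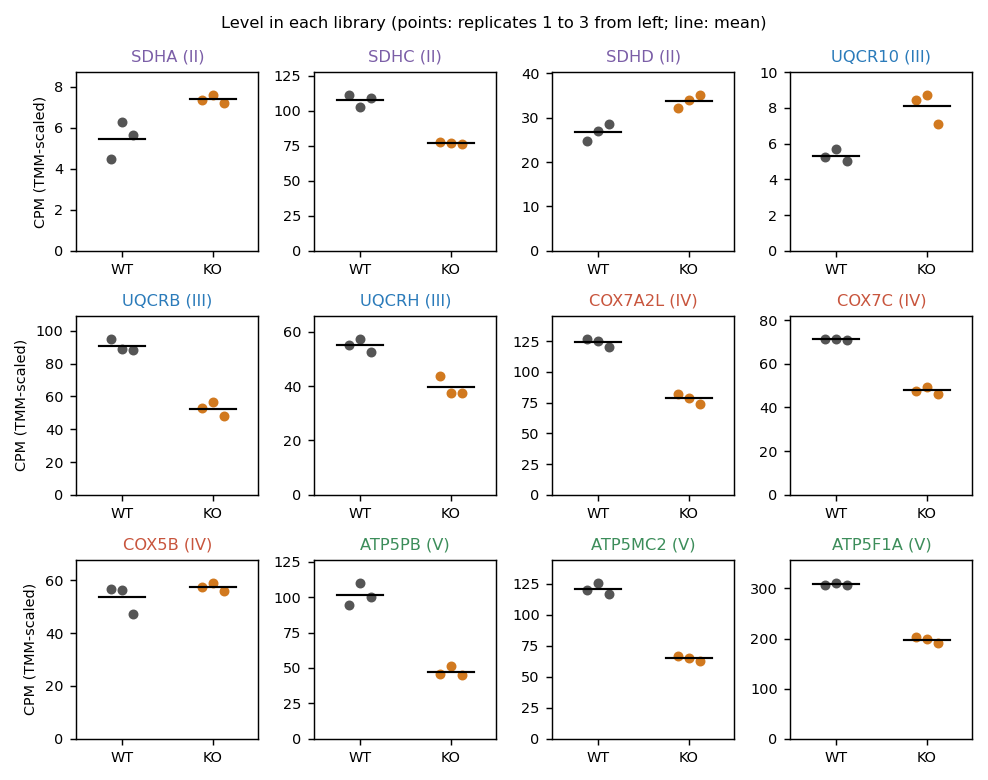
Level in CPM, on linear axes that start at 0, of 12 members in each of the 3 wild-type (WT) and 3 knockout (KO) libraries; points are libraries and lines are group means. SDHA, SDHD and UQCR10 lie higher in the knockout libraries, COX5B overlaps between the groups, and the other 8 lie lower without overlap.

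Complex IV genes fell or were not called. Among the 10 subunit genes of the general form, 7 fell and 3 were not called. COX7C, a small membrane-spanning subunit (chr5:86617904-86620962, +), was 71.2, 71.2 and 71.0 CPM in wild-type and 47.7, 49.5 and 46.3 CPM in knockout libraries. It fell by 0.57 (SE 0.0547, adjusted p 9.05e-11), and libraries within a group lay close together. COX7C shares 64.2% of its coding words with other genes, mainly the copy COX7CP1. COX6B1, which faces the intermembrane space where the monomers of the dimer meet (chr19:35648223-35658861, +), was 84.8, 92.1 and 90.8 CPM in wild-type and 70.9, 69.4 and 68.6 CPM in knockout libraries. It fell by 0.36 (SE 0.0512, adjusted p 3.83e-07), and it shares no coding words with other genes. COX6C, another small membrane subunit, was 37.7, 42.7 and 36.6 CPM in wild-type and 27.3, 29.2 and 27.9 CPM in knockout libraries, and it fell by 0.47 (SE 0.0713, adjusted p 1.14e-06). The groups did not overlap for any of these genes.

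COX4I1 and COX5A, which join the complex early in assembly, fell by 0.20 and by 0.23, COX6A1 fell by 0.42 and COX8A fell by 0.39. Most of the coding words of COX6A1 (72.7%) occur in the copy COX6A1P2, and 34.5% of the exonic bases of COX8A overlap another gene on the same strand. COX5B, the zinc-binding subunit, was 56.8, 56.3 and 47.4 CPM in wild-type and 57.5, 58.9 and 55.9 CPM in knockout libraries, and the groups overlapped. Its log2 fold change was 0.10 (95% interval -0.02 to 0.23, adjusted p 0.169). COX7A2 had a log2 fold change of -0.06 (95% interval -0.20 to 0.08) and COX7B had one of -0.08 (95% interval -0.21 to 0.06), and neither was called. These intervals leave room for a fall of up to 0.20 and 0.21 on the log2 scale, which is about the size called for COX4I1.

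COX7A2L, also known as SCAF1 or COX7RP, is a relative of COX7A2 that joins complex III to complex IV in respiratory supercomplexes. COX7A2L (chr2:42333546-42425088, -) was 126, 125 and 120.3 CPM in wild-type and 82.2, 78.9 and 74.1 CPM in knockout libraries. It fell by 0.66 (SE 0.0497, adjusted p 3e-13), the largest fall among genes of the complex IV set, and only 3.5% of its coding words occur elsewhere.

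The tissue-restricted isoforms of complex IV were at or near the limit of detection in both genotypes. The muscle form COX6A2, the testis form COX7B2 and the testis form COX8C had 0 counts in all 6 libraries, where 3 counts correspond to 0.0735 to 0.111 CPM. COX4I2, the lung and hypoxia form, was 0.0264, 0 and 0 CPM in wild-type libraries, from 1 count, and 0.0619, 0.049 and 0 CPM in knockout libraries, from 4 counts. COX7A1, the muscle form, was 0.264, 0.186 and 0.0749 CPM in wild-type and 0.0619, 0.417 and 0.319 CPM in knockout libraries, and the testis form COX6B2 was 0.369, 0.408 and 0.3 CPM in wild-type and 0.495, 0.539 and 0.147 CPM in knockout libraries. Neither was called, with log2 fold changes of 0.65 (95% interval -0.74 to 2.03) and 0.13 (95% interval -0.995 to 1.26), and the direction for COX6B2 turned with limma-voom and without knockout replicate 1 or 2. COX6A2, COX7B2, COX8C and COX4I2 had too few counts to test. For COX7A1 and COX6B2 the intervals leave room for a change in either direction, up to their limits.

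In complex V, 4 genes of the c-ring, peripheral stalk and F1 head fell by at least 1.5-fold. The count of such falls is no result, as given above, and all 4 genes share coding words with other genes. The c-ring rotates as protons pass, and its c subunit is made from ATP5MC1, ATP5MC2 and ATP5MC3, whose mature proteins are alike and whose import signals differ. ATP5MC2 (chr12:53632726-53677408, -) was 119.9, 125 and 116 CPM in wild-type and 66.7, 65.4 and 62.5 CPM in knockout libraries. It fell by 0.89 (SE 0.0502, adjusted p 1.49e-16). ATP5MC1 (chr17:48892765-48895871, +) was 40.99, 50.6 and 40.3 CPM in wild-type and 24.1, 24.0 and 26.4 CPM in knockout libraries. It fell by 0.82 (SE 0.0781, adjusted p 8.73e-11), while ATP5MC3 fell by 0.36 (SE 0.0518). The 95% interval of ATP5MC3, -0.46 to -0.25, does not meet those of ATP5MC2, -0.996 to -0.79, or ATP5MC1, -0.98 to -0.66, though the difference between the 3 genes was not itself tested. Shared coding words made up 28.8% for ATP5MC2, 26.5% for ATP5MC1 and 6.1% for ATP5MC3.

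The peripheral stalk keeps the F1 head from turning with the ring, and all 4 of its genes fell. ATP5PB, the b subunit that spans the stalk (chr1:111448864-111462773, +), was 94.3, 109.8 and 99.9 CPM in wild-type and 45.4, 51.2 and 45.3 CPM in knockout libraries. It fell by 1.10 (SE 0.0598, adjusted p 6.94e-17), the largest fall of all members, and the knockout libraries reached at most 51.2 CPM against at least 94.3 CPM in the wild-type libraries. Other genes hold 49.3% of its coding words and 10.3% of its exonic bases overlap WDR77 on the opposite strand. ATP5PF (F6) fell by 0.40 and ATP5PO, the oligomycin sensitivity protein, fell by 0.47. ATP5PD (d) fell by 0.20. Without wild-type replicate 2, which was the highest library for ATP5PO and ATP5PD, neither was called, at -0.32 (adjusted p 0.0675) for ATP5PO and -0.15 (adjusted p 0.0867) for ATP5PD. The call for ATP5PD was also lost without knockout replicate 2 (adjusted p 0.0504) or knockout replicate 3 (adjusted p 0.0519).

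All 5 genes of the F1 head and its central stalk fell. ATP5F1A, the alpha subunit (chr18:46080248-46104334, -), was 307, 311 and 308 CPM in wild-type and 202, 199 and 192 CPM in knockout libraries. It fell by 0.64 (SE 0.0415, adjusted p 5.65e-15). ATP5F1B, the catalytic beta subunit that pairs with alpha, was 540.5, 576 and 543 CPM in wild-type and 497, 476 and 469.8 CPM in knockout libraries, and it fell by 0.20 (SE 0.0406, adjusted p 7.87e-05). Both genes had groups that did not overlap. The stalk genes ATP5F1C (gamma), ATP5F1D (delta) and ATP5F1E (epsilon) fell by 0.43, by 0.37 and by 0.23.

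The small membrane subunits, which shape the dimer of the synthase and the cristae, were divided, with 2 of 5 lower and 3 not called. ATP5MG (g) fell by 0.49 and ATP5MJ, a small proteolipid, fell by 0.23, and the latter was not called without wild-type replicate 2 (-0.17, adjusted p 0.0713). ATP5MF (f) had a log2 fold change of -0.18 and was not called (adjusted p 0.0756), though its groups did not overlap. ATP5MK (DAPIT) had one of 0.09 (95% interval -0.07 to 0.24) and was not called. ATP5ME (e) was 0.87, 0.705 and 1.1 CPM in wild-type and 0.588, 0.833 and 1.06 CPM in knockout libraries, with overlapping groups and a log2 fold change of -0.11 (95% interval -0.89 to 0.66) that turned without wild-type replicate 3 or knockout replicate 1. Its count is uncertain because 61.6% of its exonic bases overlap MYL5 on the opposite strand. ATP5IF1, the inhibitor that stops the synthase from running backwards, was not called, at 0.16 (95% interval -0.03 to 0.34). The read-through gene ATP5MF-PTCD1 was 0.0264, 0.223 and 0 CPM in wild-type libraries, from 7 counts, and 0, 0.049 and 0.0491 CPM in knockout libraries, from 4 counts. ATP5MGL was 0.158, 0 and 0 CPM from 6 counts and 0, 0.098 and 0 CPM from 4 counts, and these overlapping counts were too few to test.

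Ratios of counts within a library do not depend on how libraries are scaled to each other, so 7 ratios of partners were compared. In each of the 7 the knockout libraries did not overlap the wild-type libraries, as was also so for 58.9% of single genes tested. Each gave a two-sided exact permutation p of 0.1, the smallest that 3 against 3 libraries allow. Benjamini-Hochberg adjustment over the 7 leaves it at 0.1. The ratios were chosen with earlier results of these data known, so their separation is no independent support. ATP5F1A over ATP5F1B was 0.558 ± 0.0167 (SD, n = 3) in the wild-type libraries and 0.411 ± 0.00549 (SD, n = 3) in the knockout libraries. SDHD over SDHC was 0.249 ± 0.0236 and 0.439 ± 0.0233. COX7A2L over COX7A2 was 3.70 ± 0.168 and 2.44 ± 0.133, and ATP5PB over ATP5PO was 11.6 ± 1.196 and 7.51 ± 1.00. These ratios show unequal change of counts within pairs and follow from the fold changes above. Shared coding words (81.2% for SDHD, 63.7% for SDHC, 49.3% for ATP5PB and 18.4% for ATP5F1A) leave the division of reads uncertain. So does same-strand overlap, of 19.6% of exonic bases for ATP5PO and 11.2% for SDHD. COX7A2L and COX7A2 had only 3.5% and 6.3% shared words. The part of shared reads in the ratios was not tested. A ratio of counts also reflects gene length, so its size is not a ratio of transcripts.

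All 6 mitochondrially encoded subunits of complexes III to V fell, with a median log2 fold change of -1.05. MT-CYB, cytochrome b of complex III, fell by 0.81. For complex IV, MT-CO3 fell by 1.45, MT-CO2 by 0.54 on the log2 scale and MT-CO1 by 0.53. MT-ATP8 and MT-ATP6 of complex V fell by 1.35 and by 1.29, and 22.2% of the bases of MT-ATP8 overlap MT-ATP6. The count on MT-CYB over the count on nuclear complex III genes was 4.58 ± 0.144 in the wild-type libraries and 3.22 ± 0.119 in the knockout libraries. For MT-CO1 to MT-CO3 over nuclear complex IV genes the ratios were 39.0 ± 1.59 and 30.5 ± 1.33, and for MT-ATP6 with MT-ATP8 over nuclear complex V genes 3.33 ± 0.0563 and 1.80 ± 0.0795. The nuclear members together took 0.327% to 0.343% of counts in the wild-type libraries and 0.259% to 0.276% in the knockout libraries.

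**Figure D3:**
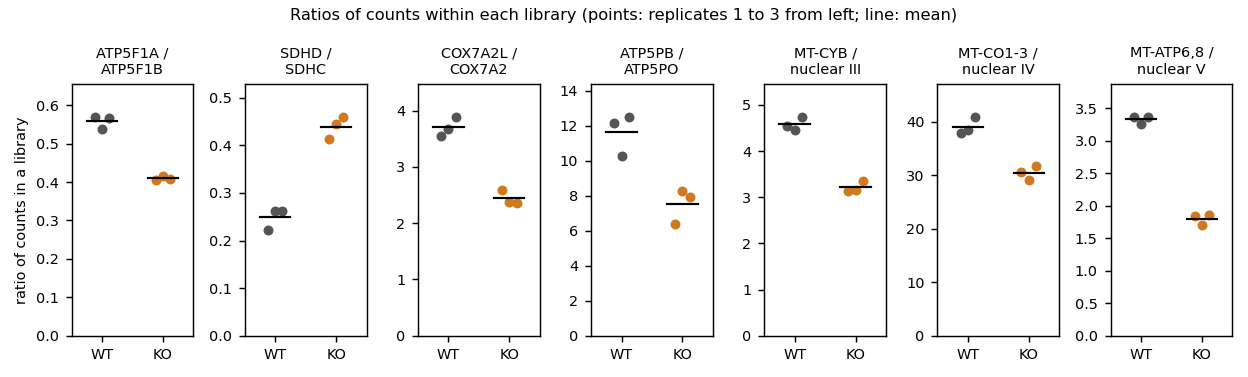
Ratio of counts of 2 genes or gene sets within each library, on linear axes that start at 0, for the 3 wild-type (WT) and 3 knockout (KO) libraries; points are libraries and lines are group means. SDHD over SDHC is higher in every knockout library and the other 6 ratios are lower in every knockout library.

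Counts in the related lists are to be read against the 26.3% lower and 27.2% higher over all genes tested, or 36.8% and 34.6% among genes whose mean was 10 CPM or more. Assembly factors were set beside the subunits they build. For complex II 1 of 4 factors fell, SDHAF3, by 0.80, and SDHAF1, SDHAF2 and SDHAF4 were not called. For complex III 4 of 9 (44.4%) fell and 1 (11.1%) rose. LYRM7, which guides the Rieske protein, fell by 0.93 and UQCC3 fell by 0.89, while UQCC1 rose by 0.27. For complex IV 7 of 25 (28.0%) fell and 5 (20.0%) rose, and the median change of the 25 was -0.04, so the share that fell was near the 26.3% over all genes and the count is no result about these factors. The copper chaperone gene COX11 fell by 0.54 and COX15, of heme A synthesis, fell by 0.39, while COX10, which acts just before COX15 in that synthesis, rose by 0.57. The SCO2 identifier rose by 2.06, but all of its exonic bases overlap TYMP or a second SCO2 identifier on the same strand and it stayed under 2 CPM in every library, so its count is uncertain. For complex V 3 of 4 tested factors fell, namely TMEM70 by 0.34, ATPAF2 by 0.30 and ATPAF1 by 0.21 on the log2 scale, and the fifth listed factor, FMC1, had too few counts to test.

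Among the carriers that serve ATP synthase, SLC25A5 fell by 1.23, SLC25A6 by 0.86 and the phosphate carrier SLC25A3 by 0.81 on the log2 scale, while SLC25A4, another ADP/ATP carrier, rose by 0.29. SLC25A5 was 276, 284 and 268 CPM in wild-type and 122, 115 and 115 CPM in knockout libraries, with no overlap. NDUFA4, an associated subunit of complex IV whose symbol lies outside the rule, fell by 0.70. HCCS, which attaches heme to cytochromes c and c1, rose by 0.66, and CYCS, cytochrome c itself, was not called at 0.11. Of 8 genes of the cristae, 4 (50%) fell and 0 rose, among them APOOL by 0.63, IMMT by 0.38 and OPA1 by 0.38.

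The citrate cycle enzymes other than complex II had 5 of 13 (38.5%) lower and 2 (15.4%) higher, with a median of -0.09. The share that fell was near the 36.8% among genes whose mean was 10 CPM or more, a level all 13 reached, so this count is no result about the list. FH, fumarase, which acts on the product of complex II, was 72.3, 73.5 and 73.8 CPM in wild-type and 36.4, 36.6 and 32.3 CPM in knockout libraries and fell by 1.06. SUCLG2, of the enzyme that supplies succinate, fell by 0.72, and CS, citrate synthase, fell by 0.58. DLST and OGDH, of the 2-oxoglutarate dehydrogenase complex, rose by 0.36 and by 0.27. Complex I nuclear subunits, the entry point for electrons from NADH, had 18 of 36 genes (50%) lower and 2 (5.56%) higher, with a median of -0.20, beside the median of -0.25 for the members of complexes II to V. NDUFS8 fell by 0.65, NDUFS6 by 0.59 and NDUFV1 by 0.37, while NDUFA9 and NDUFS4 rose by 0.55 and by 0.33.

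Of 11 regulators of respiratory chain genes, 6 (54.5%) fell and 2 (18.2%) rose, where 26.3% of all genes tested were lower and 27.2% higher. Among genes whose mean was 10 CPM or more, a level most of the 11 reached, 36.8% were lower and 34.6% higher. GABPA, the DNA-binding subunit of the ETS factor GABP, was 28.4, 33.8 and 31.1 CPM in wild-type and 19.4, 21.1 and 21.8 CPM in knockout libraries, and it fell by 0.58 (SE 0.0793, adjusted p 1.84e-07). Its partner gene GABPB1 rose by 0.28. GABPA (chr21:25734570-25772460, +) starts on the opposite strand inside the first part of ATP5PF (chr21:25716503-25735673, -), and the spans of the genes overlap by 1104 bases. No source used here says whether the authors counted by strand, so reads of the pair may be shared. The coactivator genes PPARGC1B and PPRC1 fell by 0.68 and by 0.30, and TFAM, which packages mitochondrial DNA, rose by 0.17. NRF1 was not called, at -0.14 (adjusted p 0.262), nor was YY1, at -0.10 (adjusted p 0.0678).

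**Figure D4:**
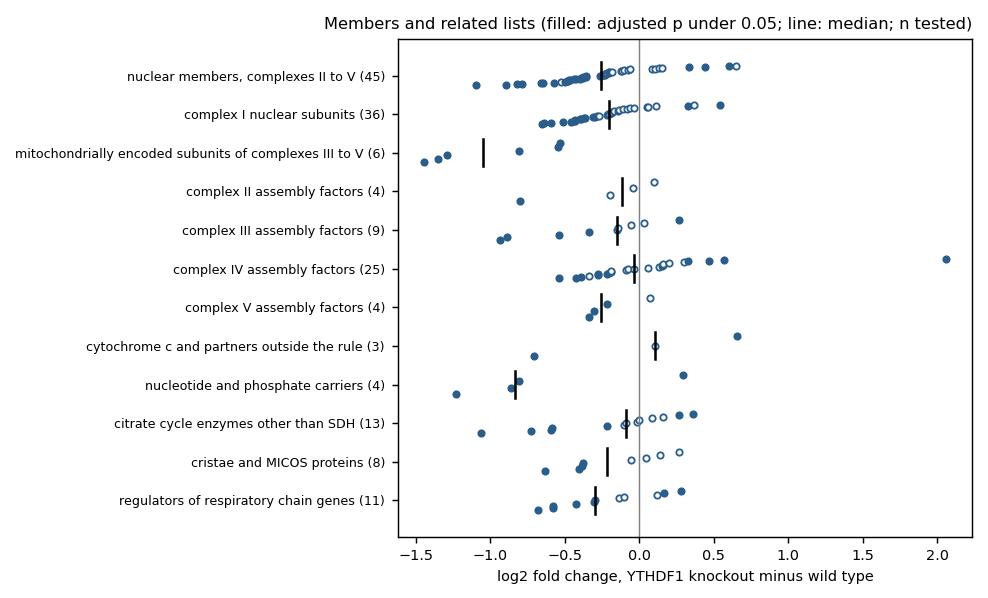
Log2 fold change, knockout minus wild type, on the horizontal axis for each tested gene of the members and of 11 related lists, 1 row per list with the number tested in parentheses; filled points have an adjusted p under 0.05 and lines are medians. The mitochondrially encoded subunits and the carriers have the lowest medians, -1.05 and -0.83, and the assembly factors of complex IV are spread on both sides of 0.

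Near copies and overlapping genes touched most members. Only 19 of the 51 had under 10% of their coding words in other genes and under 10% of their exonic bases in an overlapping gene on either strand. Of these 19, 16 were tested, 10 (62.5%) fell, 1 (6.25%) rose and the median was -0.20. Over all genes tested 26.3% were lower and 27.2% higher. Among genes whose mean was 10 CPM or more these shares were 36.8% and 34.6%. The largest falls among the 16 were those of COX7A2L, ATP5F1D, COX6B1 and ATP5MC3, with log2 fold changes of -0.66, -0.37, -0.36 and -0.36. ATP5PB, ATP5MC2, ATP5MC1 and UQCRB, which had the 4 largest falls of all members, and ATP5F1A were outside this set.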

How the data were processed

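Total RNA of A549 cells was sequenced from stranded TruSeq libraries, per the labels' protocols. The authors deposited raw counts per gene. The submitters' processing notes name Trim Galore 0.6.6, STAR 2.7.0d, featureCounts 2.0.1, edgeR 3.32.1 and GRCh38. The annotation, the strand setting and how multi-mapped reads were handled are not stated in the sources used here.

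Counts were fitted with edgeR 4.0.16 in R 4.3.3 (filterByExpr, TMM factors, genotype as the only term, two-sided quasi-likelihood test, Benjamini-Hochberg threshold of 0.05), and the code was tested on simulated data. Alternatives were DESeq2 1.42.0, limma-voom 3.58.1, other scalings, filters and thresholds, a replicate block and leaving out each library. Symbols came from a symbol table for 42000 identifiers and from GENCODE 29 for 335, and 18282 had none. Gene coordinates and exon overlaps are from GENCODE 29 on GRCh38. The members, lists, ratios and the rule for named genes were chosen with earlier results of these data known. That rule gave library values for the 4 smallest adjusted p of each complex, for members called against their complex and for members under 1 CPM. Up to 3 genes with the smallest adjusted p, and those called against most of their list, were named from each related list. COX5B, ATP5F1B, SCO2, SDHAF1, the other mitochondrially encoded subunits, the cell markers, and NRF1 and YY1, whose motifs were searched, were also chosen after their values were seen. The restriction to members with little shared sequence was added after seeing the data. Libraries of 1 group differed by more than sampling noise (chi-square per degree of freedom 4.38 to 6.46). The limit of 3 counts covers counting error only.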

Additional observations from a re-analysis of the deposited data

How the results depend on the processing

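Of the 33 called members, 28 kept their call in every edgeR, DESeq2 and limma-voom setting at a threshold of 0.05 without a minimum fold, and 0 changed direction. The exceptions were UQCRC1, SDHA, ATP5MJ, ATP5PD and ATP5PO, as given above. Most falls were small. With a fold of at least 1.2 built into the test, lower genes numbered 2817 and higher genes 3214 over all genes tested, lower members numbered 16 (2 of complex III, 5 of complex IV and 8 of complex V), and higher members numbered 1, with 0 in complex II. Leaving out each library in turn gave 26 to 31 lower members and 2 to 3 higher members, 1 to 2 lower and 1 to 2 higher in complex II, 6 to 8 lower in complex III and 11 to 14 lower in complex V. Over all genes the same settings gave 4436 to 4638 lower and 4623 to 4872 higher genes, against 4865 and 5028 with all libraries. Among members with little shared sequence or overlap, 10 (62.5%) were lower and 1 (6.25%) was higher, from fewer genes, where 26.3% and 27.2% of all genes tested were. A filter of 1 CPM in 3 libraries moved the complex IV median from -0.23 to -0.36 by removing its low isoforms. Reversed values, none of them called, were COX6B2 with limma-voom (-0.069), without knockout replicate 1 (-0.052) and without knockout replicate 2 (-0.18), and ATP5ME without wild-type replicate 3 (0.071) and without knockout replicate 1 (0.072). Over all libraries left out in turn, COX6B2 ranged from -0.18 to 0.54 and ATP5ME from -0.32 to 0.072. Same-numbered libraries did not deviate together (correlations -0.026, -0.0143 and 0.00785), so no pairing by number was seen. This does not show how the libraries were grown or processed. A replicate block gave 31 lower and 3 higher members, the added one being UQCRHL (-0.53, adjusted p 0.0455 in edgeR). Low counts limit the 6 tissue-restricted isoforms of complex IV and ATP5ME. For ATP5ME the overlap with MYL5 adds to the uncertainty.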
